A study of Sus scrofa with 6 samples.

Results

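The 9 genes described here mark cells of the myeloid lineage, the branch of blood formation that gives rise to monocytes, macrophages and neutrophils, or serve these cells as receptors. They are SPI1, CSF1R, PTPRC, CD14, TLR4, ITGAM, MRC1, CD209 and MPEG1, chosen by name with their levels in these samples known. Each was represented by 1 probe set whose only symbol in the platform annotation is that gene, so these 9 stand among 10881 named genes and 27558 probe sets. They were measured in 6 primary cultures of porcine mesenchymal stem cells, plastic-adherent marrow cells that can form bone, cartilage and fat. Of these, 3 were grown from mandibular marrow, drawn at the symphysis of the chin, and 3 from tibial marrow. All came from female American Yorkshire pigs aged 4 months and were taken at passage 0, at 80% confluence, with no treatment or genetic change named in the labels. The design text names 3 pigs as donors for both sites, and which pig gave which sample is not stated. Whole marrow was plated on plastic in medium with 20% serum, without any sort or gate that would have removed other adherent cells.

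Macrophages depend on a small set of regulators and receptors. PU.1, the product of SPI1, is the transcription factor that opens the myeloid program, and the receptor CSF1R receives the CSF1 and IL34 signals on which macrophages live. In marrow, resident macrophages lie beside stromal cells and adhere to plastic as stromal cells do. Human mesenchymal stem cells are by convention required to lack the surface proteins of PTPRC (CD45), of CD14 and of ITGAM (CD11b), so 3 of the genes are among those by which such cultures are checked.

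Levels are log2 values after RMA, the authors' processing, in which 1 unit is a doubling. Array medians lay between 5.63 and 5.71 and lower quartiles between 3.86 and 3.94. The values carry no call of detection above background, so levels near or under these quartiles cannot be told from background. The stromal surface markers THY1 and ENG were high in all cultures. THY1 measured 10.61 ± 0.10 in mandibular and 10.63 ± 0.01 in tibial cultures, and ENG 10.38 ± 0.31 and 9.86 ± 0.36 (SD, n = 3 each). NT5E, the other defining marker, varied more, with 7.80 ± 0.78 and 8.27 ± 0.76. CD34, which stromal cultures should lack, measured 4.81 ± 0.32 and 4.95 ± 0.16. The arrays labelled mandibular 2 and tibial 3 went against their labels for positional genes. HOXA7, a trunk and limb homeobox gene, measured 5.26, 8.40 and 5.23 on mandibular 1, 2 and 3, against 8.01, 7.92 and 5.89 on tibial 1, 2 and 3. ALX1, a homeobox gene of the facial skeleton, measured 8.08, 3.86 and 7.44 on the mandibular arrays, against 3.90, 3.54 and 7.97 on the tibial arrays. Labels were kept as given. The differences of the 9 genes, of the lists and of the partner genes named with a difference are given with and without these arrays. For all 9 genes mandibular 2 was the highest mandibular array and tibial 3 the lowest tibial array. Leaving these arrays out could thus only widen the differences of the 9.

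All 9 genes had a lower mean in the cultures labelled mandibular, by 0.33 to 2.97 on the log2 scale, with a median difference of -2.18. Among all 27558 probe sets 49.0% had a lower mandibular mean, and the median difference was 0.00. The genes were chosen with this contrast known, so their differences are a description and no p is given for them. In the limma fit over all probe sets, 0.0% passed an adjusted p of 0.05 in either direction, and 3.03% (836) had an unadjusted p under 0.05. The values of the sites did not overlap for 2 of the 9 genes, CD14 and ITGAM, where 3.57% of all probe sets were without overlap and lower in mandibular cultures. In RNA from a whole culture, fewer myeloid cells and less of these transcripts per cell cannot be told apart.

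**Figure D1:**
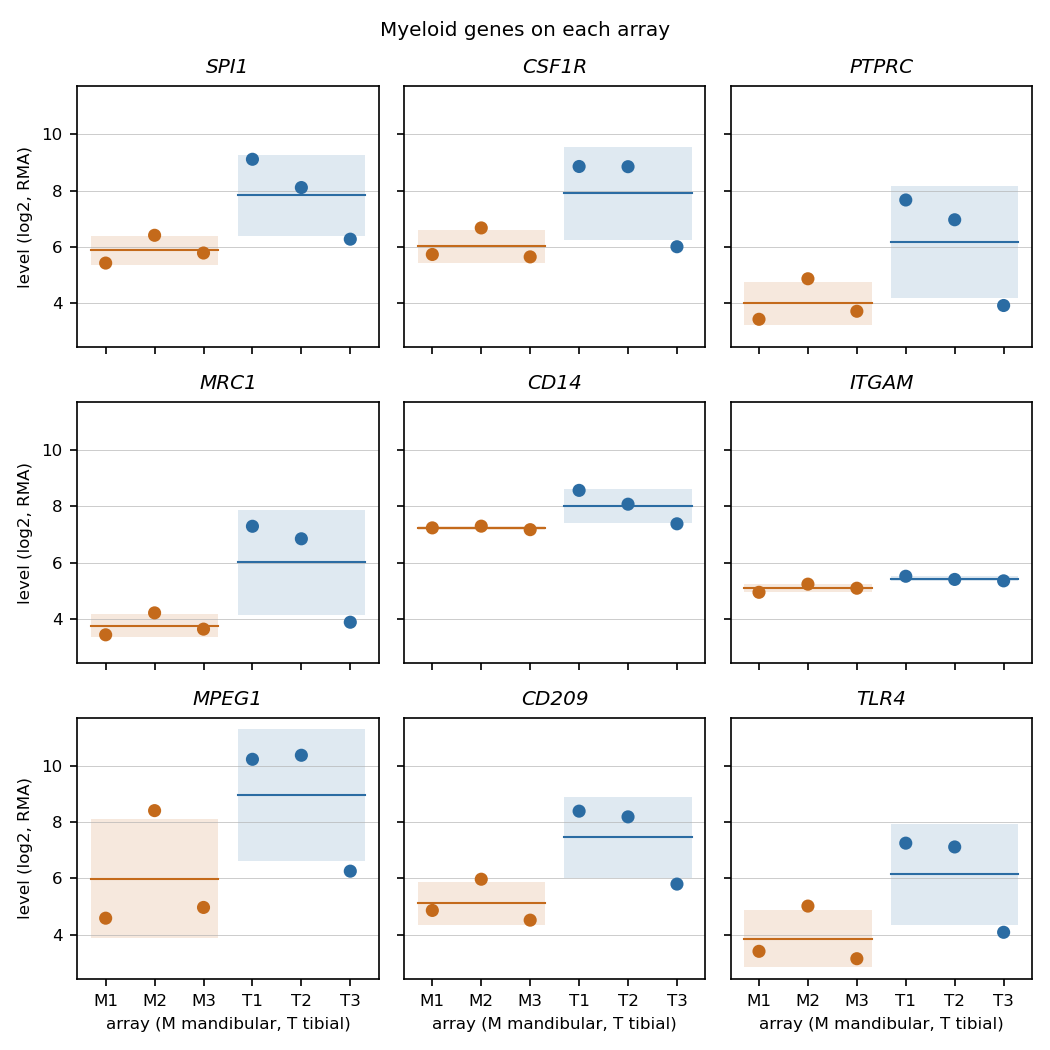
Level of each gene (log2, RMA) on the arrays labelled mandibular 1 to 3 (M1 to M3, orange) and tibial 1 to 3 (T1 to T3, blue); points are arrays, lines the means of 3 arrays and shaded bands ± 1 SD. Every gene has its highest level on tibial 1 or tibial 2. In 7 of 9 panels the mandibular and tibial points overlap, since mandibular 2 lies above tibial 3 there.

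SPI1 (Entrez gene 414912) encodes PU.1, the ETS-family factor without which macrophages and B cells do not form in mice. It measured 5.42, 6.41 and 5.78 in the cultures labelled mandibular 1, 2 and 3, against 9.11, 8.11 and 6.27 in those labelled tibial 1, 2 and 3. Tibial 1 and 2 were high, tibial 3 lay just under mandibular 2, and the sites overlapped. The means were 5.87 ± 0.50 and 7.83 ± 1.44 (SD, n = 3 each), a difference of -1.96 (SE 0.69), or 3.89-fold. Among the 9 genes SPI1 had the widest gap between tibial 1 and tibial 2, 1.01. Without mandibular 2 and tibial 3 its difference was -3.01.

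CSF1R (Entrez gene 100517086) encodes the tyrosine kinase receptor for CSF1 and IL34. Its levels were 5.73, 6.67 and 5.64 in mandibular 1, 2 and 3, against 8.86, 8.85 and 6.001 in tibial 1, 2 and 3. Tibial 1 and 2 differed by 0.01, less than for any other of the 9 genes, and mandibular 2 lay above tibial 3. The site means were 6.01 ± 0.57 and 7.90 ± 1.65 (SD, n = 3 each), and their difference was -1.89 (SE 0.79). With both arrays that go against their labels left out it was -3.17.

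PTPRC (Entrez gene 100522631) encodes CD45, the membrane phosphatase carried by all nucleated blood cells and used to tell them from stroma. In mandibular 1, 2 and 3 it measured 3.42, 4.86 and 3.71, against 7.66, 6.96 and 3.91 in tibial 1, 2 and 3. The levels on mandibular 1, mandibular 3 and tibial 3 were near or under the lower quartiles of the arrays, so the CD45 transcript cannot be told from background there. On tibial 1 and 2 it was clearly above them. The means were 4.00 ± 0.76 and 6.18 ± 1.99 (SD, n = 3 each), with a difference of -2.18 (SE 0.96), which was -3.75 without mandibular 2 and tibial 3.

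CD14 (Entrez gene 100037938) and TLR4 (Entrez gene 399541) act in sequence, CD14 handing bacterial lipopolysaccharide to the signalling receptor TLR4. CD14 measured 7.23, 7.29 and 7.17 in mandibular 1, 2 and 3, against 8.57, 8.08 and 7.38 in tibial 1, 2 and 3. The mandibular arrays were nearly equal, every tibial array lay above them, and tibial 3 did so by little. The means were 7.23 ± 0.06 and 8.01 ± 0.60 (SD, n = 3 each), and the difference was -0.77 (SE 0.29), or 1.71-fold. Its level stayed well above the lower quartile of every array.

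TLR4 measured 3.41, 5.01 and 3.14 in mandibular 1, 2 and 3, against 7.25, 7.12 and 4.08 in tibial 1, 2 and 3. Mandibular 1 and 3 were under the lower quartiles of the arrays, and mandibular 2 lay above tibial 3. Its difference was -2.30 (SE 0.93), from means of 3.85 ± 1.01 and 6.15 ± 1.79 (SD, n = 3 each), and is limited by the mandibular levels near background. The pair thus differed in span, with a range over the 6 arrays of 4.11 for TLR4 and of 1.40 for CD14. Without mandibular 2 and tibial 3 the differences were -3.91 for TLR4 and -1.12 for CD14.

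ITGAM (Entrez gene 397459) encodes CD11b, the alpha chain of the complement receptor that monocytes and neutrophils use to adhere and to engulf. Its levels were 4.94, 5.23 and 5.09 in mandibular 1, 2 and 3, against 5.51, 5.40 and 5.35 in tibial 1, 2 and 3. The sites did not overlap, but the whole range was 0.57, close to the median range of 0.53 over all probe sets. The means were 5.09 ± 0.14 and 5.42 ± 0.08 (SD, n = 3 each), a difference of -0.33 (SE 0.12), or 1.26-fold, and of -0.44 without mandibular 2 and tibial 3. ITGAM was the only one of the 9 whose tibial 3 level lay nearer to tibial 1 and 2 than to mandibular 1 and 3.

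MRC1 (Entrez gene 445003) encodes the macrophage mannose receptor CD206, which takes up mannose-bearing glycoproteins. It measured 3.43, 4.21 and 3.63 in mandibular 1, 2 and 3, against 7.29, 6.85 and 3.88 in tibial 1, 2 and 3. Tibial 3 and the mandibular arrays lay together near the lower quartiles, far under the other tibial arrays. The means were 3.76 ± 0.41 and 6.005 ± 1.85 (SD, n = 3 each), and the difference was -2.25 (SE 0.86), or -3.54 without mandibular 2 and tibial 3.

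CD209 (Entrez gene 100170134) encodes DC-SIGN, a C-type lectin of dendritic cells and some macrophages that binds mannose and fucose on pathogens. It measured 4.86, 5.97 and 4.51 in mandibular 1, 2 and 3, against 8.39, 8.19 and 5.80 in tibial 1, 2 and 3. Mandibular 2 and tibial 3 were close to each other and between the low mandibular and the high tibial levels. The means were 5.11 ± 0.76 and 7.46 ± 1.44 (SD, n = 3 each), with a difference of -2.34 (SE 0.74), or 5.08-fold, and of -3.60 without these 2 arrays.

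MPEG1 (Entrez gene 100516953) encodes perforin-2, a pore-forming protein of phagocytes that attacks engulfed bacteria. It measured 4.58, 8.41 and 4.97 in mandibular 1, 2 and 3, against 10.23, 10.38 and 6.26 in tibial 1, 2 and 3. Mandibular 2 stood far above the other mandibular arrays and above tibial 3, and tibial 2 was the highest array, which held for no other of the 9 genes. The range of 5.79, or 55.5-fold, ranked 20 among all 27558 probe sets. The site means were 5.99 ± 2.11 and 8.96 ± 2.34 (SD, n = 3 each), and the difference of -2.97 (SE 1.41) was -5.53 without mandibular 2 and tibial 3.

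Much of the spread lay within the labelled sites. On mandibular 2 all 9 genes had the highest level of the mandibular arrays, and on tibial 3 all 9 had the lowest of the tibial arrays. Mandibular 2 lay above the mean of mandibular 1 and 3 by 0.09 (CD14) to 3.63 (MPEG1). For MPEG1 this was 12.4-fold. For TLR4, PTPRC and MRC1 the levels on mandibular 1 and 3 were near background, and no fold is given. Tibial 3 differed from the mean of tibial 1 and 2 by -0.11 (ITGAM) to -4.05 (MPEG1). Mandibular 2 was above tibial 3 for 7 genes, with MPEG1 apart by 2.15, and below it for CD14 and ITGAM. Mandibular 1 and 3 differed by at most 0.38 in size (MPEG1).

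**Figure D2:**
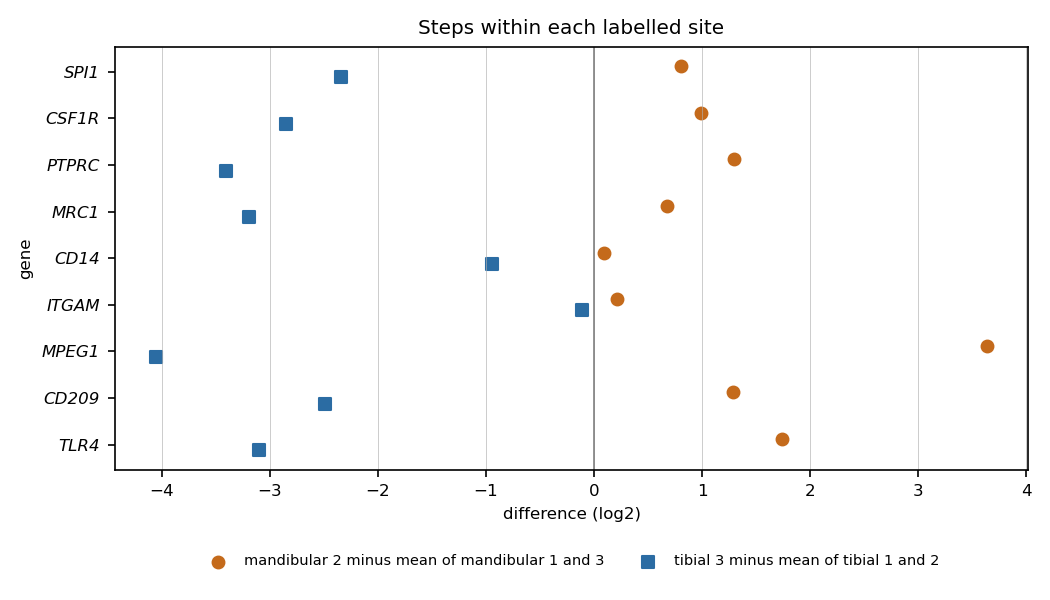
Difference in log2 level of mandibular 2 from the mean of mandibular 1 and 3 (orange circles) and of tibial 3 from the mean of tibial 1 and 2 (blue squares), for each gene. All circles lie above 0 and all squares below it, with MPEG1 at 3.63 and -4.05 and ITGAM at 0.22 and -0.11.

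Seen as a position within each gene's own range, with 0% for its lowest array and 100% for its highest, mandibular 2 lay between 8.89% for CD14 and 66.0% for MPEG1, with a median of 34.0%. Tibial 3 lay between 11.2% for CSF1R and 71.3% for ITGAM, with a median of 22.9%. By level, mandibular 2 was nearer to the mean of mandibular 1 and 3 than to that of tibial 1 and 2 for 8 genes, MPEG1 being the exception. Tibial 3 was likewise nearer to mandibular 1 and 3 for 8, ITGAM being the exception. For HOXA7, by contrast, mandibular 2 was the highest of the 6 arrays.

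**Figure D3:**
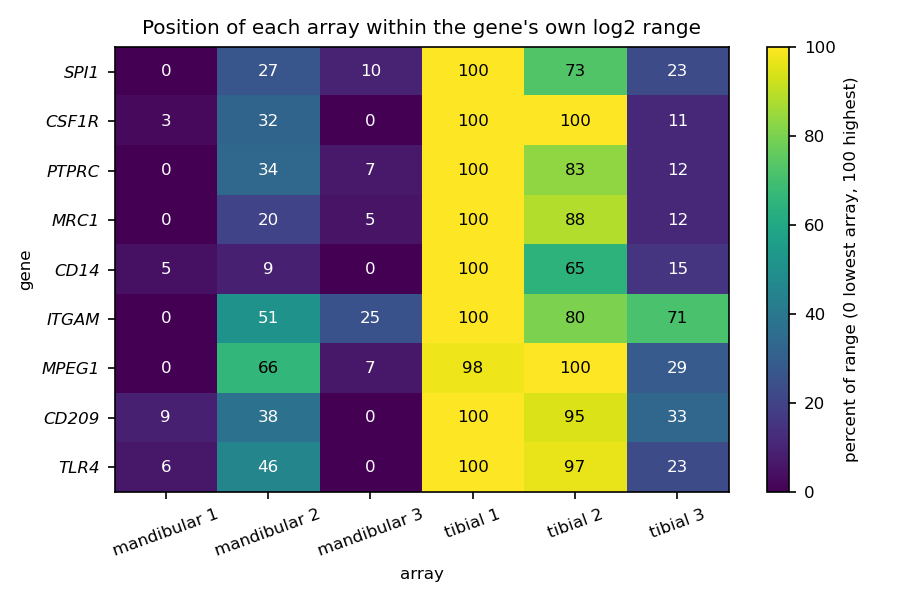
Position of each array in the log2 range of each gene, in percent (0 the lowest array, 100 the highest), with genes in rows and arrays in columns. Tibial 1 and 2 lie at 64.8% or more in every row, while mandibular 2 spans 8.89% to 66.0%.

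Within the labelled sites the 9 genes shared the rise on mandibular 2 and the fall on tibial 3 but differed in the size of both. The centred profile of a gene is its level on each array minus its mean over the 6 arrays, and the root mean square difference between the profiles was taken for the 36 pairs of genes. It was smallest for PTPRC and MRC1, at 0.23, followed by CD209 and TLR4, at 0.26, and CSF1R and MRC1, at 0.28. It was largest for ITGAM and MPEG1, at 2.18. Against the mean profile of the 9, CSF1R was nearest, at 0.17, and SPI1 and CD209 were at 0.26. CD14, MPEG1 and ITGAM were farthest, at 0.85, 1.12 and 1.16. The profiles were not scaled, so this distance also reflects the range of a gene, which was 1.40, 5.79 and 0.57 respectively. The mean profile itself was -1.38, -0.15 and -1.31 on mandibular 1, 2 and 3, against 1.94, 1.61 and -0.72 on tibial 1, 2 and 3.

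Outside the 9, the genes whose profile lay nearest to that mean were PRDM1, BANK1, TAGAP, ARRB1, CMKLR1, SMPDL3A, LCP2, CXHXorf21, AIF1 and ADAM28. Their root mean square differences ran from 0.16 to 0.32 over the 6 arrays, where the median over 10872 other genes was 1.34. They were picked as the smallest of these distances, so lying under the median was fixed by the choice. PRDM1, which encodes the transcriptional repressor BLIMP1, measured 4.40, 5.33 and 4.63 in mandibular 1, 2 and 3, against 7.88, 7.34 and 4.93 in tibial 1, 2 and 3. It was also the nearest to SPI1, at 0.18. CMKLR1, the chemerin receptor gene, measured 4.82, 5.78 and 4.71 in mandibular cultures, against 8.08, 7.11 and 5.15 in tibial cultures.

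Single genes had nearest neighbours of different kinds. For MPEG1 these were C1QC, at 0.34, the class II gene SLA-DRA, at 0.36, and C1QB, at 0.37. C1QC, a chain of complement C1q, measured 5.46, 8.47 and 5.47 in mandibular 1, 2 and 3, against 10.81, 10.32 and 6.99 in tibial 1, 2 and 3, with the same step up on mandibular 2. C1QA was nearest to TLR4, at 0.13, and ADAM28 to PTPRC, at 0.13, and to MRC1, at 0.23. The adaptor gene LCP2 was nearest to CSF1R, at 0.18. ACP5, the tartrate-resistant acid phosphatase gene, was nearest to CD209, at 0.31. CD14 lay nearest to ARHGAP4, CSF2RB and F8, each at 0.11, and ITGAM to FKBP1B and DUSP2, each at 0.06.

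Other myeloid genes were then set beside the 9 in 8 lists by role. Of 149 listed genes, 92 had a probe set of their own symbol, and the rest are not analysed here. Of the 92, 75 had a lower and 17 a higher mandibular mean, with a median difference of -0.45, beside 0.00 over all probe sets, and 0 passed the adjusted test in either direction. Values of the sites were without overlap for 5 genes lower in mandibular cultures, 5.43% of the 92 beside 3.57% of all probe sets, and for 2 higher ones, 2.17% beside 3.35%. A range over the arrays of at least 1 log2 unit was found for 63 of the 92, or 68.5%, beside 16.1% of all probe sets. Of these 63, 58 had their highest level on tibial 1 or 2, a share that was not counted over all probe sets. Without mandibular 2 and tibial 3 the median difference was -0.91.

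**Figure D4:**
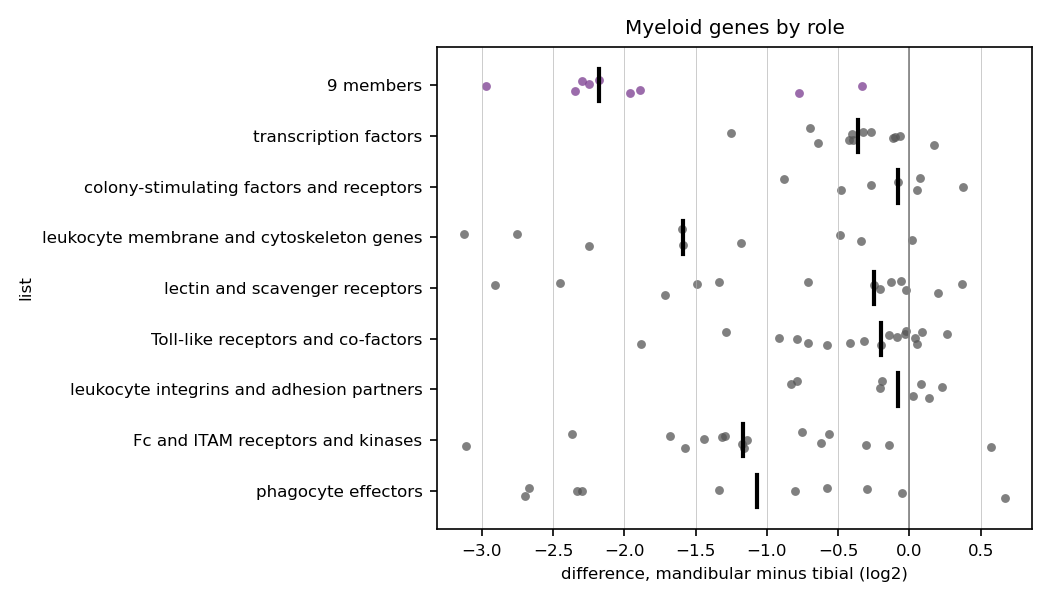
Difference, mandibular minus tibial, in log2 level for the 9 genes (purple) and for the measured genes of 8 myeloid lists (grey), 1 point per gene, with black bars at the medians. The medians are -2.18 for the 9, -1.59 for leukocyte membrane and cytoskeleton genes, -1.17 for Fc and ITAM genes, -1.07 for phagocyte effectors and between -0.36 and -0.08 for the other lists.

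Beside SPI1, the list of transcription factors had 11 of 12 genes lower in mandibular cultures, a median of -0.36 and 0 calls. The median was -0.71 without mandibular 2 and tibial 3, -0.61 without tibial 3 alone and -0.04 without tibial 1. Most of its members are also used outside the myeloid lineage. CEBPA, which acts with PU.1 in granulocyte and monocyte precursors, measured 6.19, 6.10 and 5.87 in mandibular 1, 2 and 3, against 7.19, 6.92 and 5.97 in tibial 1, 2 and 3. CEBPB differed by -0.12 (SE 0.20), and by -0.31 without mandibular 2 and tibial 3. RUNX1, a factor of blood formation, differed by -0.27 (SE 0.28), and by -0.72 without these arrays. TFEC, a relative of MITF, had the widest range of the list, 3.15, with 3.07, 3.82 and 2.83 in mandibular cultures against 5.59, 5.45 and 2.45 in tibial cultures. Its levels on the mandibular arrays and on tibial 3 were under the lower quartiles of the arrays. Their order cannot be told from background, and the range is limited by this.

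The 2 ligands of CSF1R differed from each other in pattern. CSF1 measured 11.45, 10.73 and 11.40 in mandibular 1, 2 and 3, against 11.08, 10.79 and 11.49 in tibial 1, 2 and 3, a difference of 0.07 (SE 0.26), or 0.49 without mandibular 2 and tibial 3. Its range of 0.75 stands beside 3.22 for CSF1R, and its highest array was tibial 3. IL34, the other ligand, measured 6.68, 6.44 and 6.15 in mandibular cultures, against 7.58, 7.01 and 6.11 in tibial cultures. As for CSF1R, tibial 1 and 2 were its highest arrays, and it differed by -0.48 (SE 0.37), or -0.88 without mandibular 2 and tibial 3. CSF2RB, the shared beta chain of the GM-CSF, IL-3 and IL-5 receptors, differed by -0.88 (SE 0.33), or -1.33 without these arrays, with 5.19, 5.28 and 4.9995 in mandibular against 6.60, 6.24 and 5.27 in tibial cultures. The list of colony-stimulating factors and receptors had 4 of 7 lower, a median of -0.08 and 0 calls. The direction of this median rested on single arrays, since it was -0.37 without mandibular 2, -0.20 without tibial 2, -0.23 without tibial 3, -0.35 without both mandibular 2 and tibial 3, but 0.05 without tibial 1 and 0.11 with array weights. It was -0.03 without mandibular 3 and -0.05 without mandibular 1.

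Genes of the leukocyte membrane and cytoskeleton, set beside PTPRC, had the lowest median of the 8 lists. Of 9 measured, 8 were lower in mandibular cultures, the median was -1.59, all 9 had a range of at least 1 and 0 were called. The median was -2.48 without mandibular 2 and tibial 3 and -0.77 without tibial 1. CD53, a tetraspanin of blood cells, measured 4.65, 5.52 and 4.51 in mandibular 1, 2 and 3, against 9.11, 7.74 and 4.58 in tibial 1, 2 and 3. Tibial 3 lay with mandibular 1 and 3. LCP1, which encodes the leukocyte actin bundler plastin-2, had a range of 6.35 and a difference of -3.12 (SE 1.33), or -5.25 without mandibular 2 and tibial 3. ARHGDIB was arranged otherwise, with its highest level, 8.95, on mandibular 2.

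Within the Toll-like receptor list, receptors and signalling proteins differed in range. These subsets were formed after the values were seen and are given without a test. The 8 receptors TLR1, TLR2, TLR3, TLR6, TLR7, TLR8, TLR9 and TLR10 all had a lower mandibular mean, by 0.14 to 1.29, and 6 had a range of at least 1. TLR6 on every array and TLR8 on the mandibular arrays were under the lower quartiles of the arrays. Their levels there cannot be told from background, and their differences are limited by this. TLR3 was highest on tibial 2 but lowest on tibial 1. TLR2, the receptor for bacterial lipopeptides, measured 5.03, 5.79 and 5.37 in mandibular 1, 2 and 3, against 6.42, 6.21 and 5.30 in tibial 1, 2 and 3. The adaptors and kinases MYD88, TIRAP, TICAM2, IRAK1, IRAK3, IRAK4 and TRAF6 had ranges of 0.31 to 0.69 and differences between -0.20 and 0.27. MYD88 measured 9.37, 9.43 and 9.35 in mandibular cultures, against 9.67, 9.77 and 9.32 in tibial cultures. LY96, which encodes MD-2, the subunit of the TLR4 complex that binds lipopolysaccharide, differed by -0.09 (SE 0.31), beside -2.30 for TLR4. Without mandibular 2 and tibial 3 it differed by -0.34. Of the 17 measured genes, 13 were lower, with a median of -0.20 and 0 calls. The median was -0.36 without mandibular 2 and tibial 3, -0.34 without tibial 3 alone and with array weights, and -0.12 among genes with a mean of at least 5.

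Relatives of the lectins and of the integrin gave mixed values. MRC2, the relative of MRC1 that fibroblasts use to take up collagen, measured 10.46, 9.54 and 10.01 in mandibular 1, 2 and 3, against 9.49, 9.46 and 9.95 in tibial 1, 2 and 3, a difference of 0.37 (SE 0.26), or 0.76 without mandibular 2 and tibial 3. MSR1, the class A scavenger receptor gene, measured 3.34, 5.39 and 3.66 in mandibular cultures, against 9.51, 7.50 and 4.09 in tibial cultures, with a difference of -2.90 (SE 1.32), or -5.01 without these arrays. On mandibular 1 and 3 MSR1 was under the lower quartiles of the arrays, and its differences are limited by this. CLEC7A, which encodes the beta-glucan receptor dectin-1, was at 2.78, 2.62 and 2.50 in mandibular cultures, against 5.39, 4.38 and 2.61 in tibial cultures, and only tibial 1 and 2 were above the lower quartiles of the arrays. The lectin and scavenger list had 11 of 13 lower, a median of -0.25 and 0 calls, with a median of -0.64 without both arrays, -0.45 without tibial 3 and -0.37 without mandibular 1. ITGAL, the alpha chain of LFA-1, differed by 0.03 (SE 0.32), and by -0.21 without both arrays. In the integrin and adhesion list 4 of 8 were lower, the median was -0.08 and 0 were called. This direction rested on tibial 1, without which the median was 0.06, and it was 0.04 with array weights. It was -0.17 without mandibular 1, -0.33 without tibial 3 and -0.37 without both mandibular 2 and tibial 3.

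The Fc and ITAM list holds receptors and adaptors that signal through ITAM motifs, short tyrosine motifs that recruit SYK. All but TREM1, 15 of the 16 genes of this list, were highest on tibial 1 or 2. This share was not counted over all probe sets. Of 16 measured Fc and ITAM genes, 15 were lower in mandibular cultures, with a median of -1.17 and 0 calls. The median was -1.83 without mandibular 2 and tibial 3 and -0.65 without tibial 1. TYROBP, the adaptor DAP12, measured 5.40, 6.68 and 5.29 in mandibular 1, 2 and 3, against 9.997, 8.76 and 5.72 in tibial 1, 2 and 3. FCER1G, the Fc receptor gamma chain, measured 3.68, 6.68 and 4.32 in mandibular cultures, against 10.09, 8.77 and 5.15 in tibial cultures. For both genes mandibular 2 lay above tibial 3. On mandibular 1 FCER1G was under the lower quartiles of the arrays. TREM1, a receptor of neutrophils and monocytes, went the other way, with a difference of 0.57 (SE 0.20), or 0.48 without mandibular 2 and tibial 3, and no overlap, at levels of 5.37 or less.

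Among phagocyte effectors 9 of 10 were lower in mandibular cultures, with a median of -1.07 and 0 calls. The median was -1.74 without mandibular 2 and tibial 3 and -1.61 without tibial 3 alone. CYBB, the catalytic subunit of the phagocyte NADPH oxidase, measured 4.21, 5.69 and 3.83 in mandibular 1, 2 and 3, against 9.02, 8.03 and 4.69 in tibial 1, 2 and 3. AIF1, a macrophage actin-binding protein gene, measured 3.95, 4.75 and 4.00 in mandibular cultures, against 6.63, 6.32 and 3.75 in tibial cultures. LYZ, the lysozyme gene, measured 2.91, 3.80 and 2.65 in mandibular cultures, against 6.10, 7.32 and 2.85 in tibial cultures. Like MPEG1 it was highest on tibial 2, but on mandibular 2 it stayed near the lower quartiles of the arrays. On mandibular 1, mandibular 3 and tibial 3 it was well under them. PRF1, the lymphocyte relative of MPEG1, had a range of 0.42 and a difference of -0.05 (SE 0.15), or 0.04 without mandibular 2 and tibial 3. CD86, a co-stimulatory ligand, was the exception, with 9.85, 7.80 and 9.87 in mandibular cultures against 8.44, 7.44 and 9.64 in tibial cultures. It was lowest on tibial 2, mandibular 2 and tibial 1.

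Markers of other cells were compared over the same arrays. The mean level of 14 T and NK cell genes lay between 4.13 and 4.22 in mandibular and between 4.17 and 4.63 in tibial cultures. That of 3 B cell genes lay between 4.61 and 4.69 against 4.76 and 4.80, and that of 8 erythroid and megakaryocyte genes between 4.22 and 4.25 against 4.08 and 4.35. Within the T and NK list 3 of 14 genes had a range of at least 1. NKG7 spanned 4.83, with 9.84 and 8.40 on tibial 1 and 2, CD4 spanned 1.61 and CD247 spanned 1.08. The T cell receptor genes CD3D, CD3E and CD3G spanned 0.58, 0.56 and 0.59. None of the measured genes on the B cell and the erythroid and megakaryocyte lists spanned 1, and HBB was at 2.75 or less on all arrays. PTPRC is carried by leukocytes of the lymphoid lineages too. Of 9 listed B cell genes only CD79A, CD79B and PAX5 were measured, with ranges of 0.39, 0.49 and 0.46. BANK1 and BLNK, named for B cells but not on this list, had ranges of 3.42 and 2.72 and were highest on tibial 1. The part of lymphoid cells in the PTPRC level was not tested. The 7 endothelial genes had a mean of 4.75 to 4.83 in mandibular and of 4.76 to 5.15 in tibial cultures. The mean of the 13 stromal genes was 10.15 to 10.42 in mandibular and 10.34 to 10.42 in tibial cultures. Single stromal genes varied more, and 6 of the 13 had a range of at least 1, up to 2.08 for NT5E.

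The means of the osteoclast and neutrophil granule lists were, like the 9 genes, highest on tibial 1 and 2. The mean of 10 osteoclast genes, a cell type of the same lineage, was 5.52, 6.19 and 5.55 in mandibular 1, 2 and 3, against 7.55, 7.11 and 5.68 in tibial 1, 2 and 3. Of these 10, 6 had a range of at least 1, up to 5.62 for MMP9, and 8 were lower in mandibular cultures. CTSK and NFATC1 were higher there, by 0.02 and 0.33, and CALCR had a range of 0.19. The mean of 8 neutrophil granule genes was 4.65, 4.49 and 4.46 in mandibular cultures, against 5.37, 5.25 and 4.67 in tibial cultures. Its highest mandibular array was mandibular 1, where for the 9 genes it was mandibular 2. Of the 8 neutrophil granule genes, 3 had a range of at least 1. LCN2, the lipocalin that binds bacterial iron carriers, measured 8.78, 7.53 and 7.51 in mandibular 1, 2 and 3, against 9.32, 10.30 and 8.03 in tibial 1, 2 and 3. S100A12 measured 3.34, 3.58 and 3.69 in mandibular cultures, against 7.41, 5.34 and 3.74 in tibial cultures, and MPO spanned 1.13. S100A8 and S100A9, abundant neutrophil transcripts, were at 3.76 or less on every array. The mean of 11 cell cycle genes ran the opposite way, with 7.66, 7.77 and 8.66 in mandibular cultures against 6.05, 6.71 and 8.26 in tibial cultures. The part of these cell types and of proliferation in the levels of the 9 genes was not tested. Housekeeping genes had a list mean between 10.70 and 10.83 in mandibular and between 10.66 and 10.93 in tibial cultures, and immediate early and heat shock genes between 9.91 and 10.07 against 9.81 and 10.17.

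**Figure D5:**
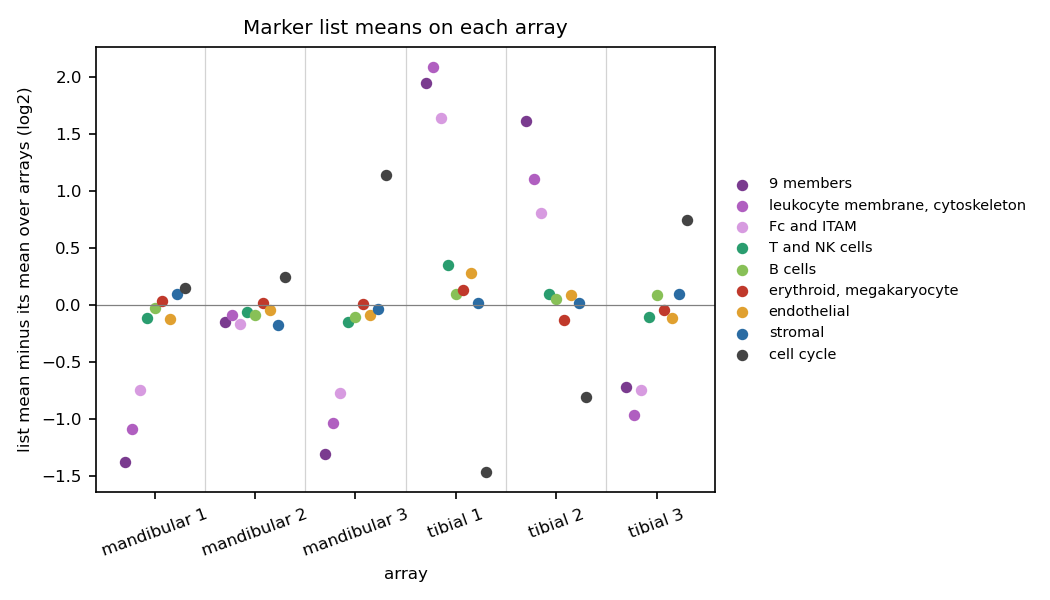
Mean log2 level of 9 gene lists on each array, minus the mean of that list over the 6 arrays; each point is 1 list on 1 array. Myeloid lists (purple shades) lie highest on tibial 1 and 2 and cell cycle genes (black) lowest there, while the stromal list mean spans 0.27, the B cell list mean 0.20 and the erythroid list mean 0.27.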

How the data were processed

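RNA of 6 cultures was hybridised to Affymetrix porcine arrays after biotin labelling. The authors deposited log2 levels of 27558 probe sets. The submitters' processing notes name RMA, Transcriptome Analysis Console 3.0 and Affymetrix Expression Console, without their order. RMA makes the distributions of probe intensities equal across arrays before they are summarised to probe sets, so a shift shared by all genes is largely removed. Medians of the deposited levels still differed slightly between arrays, from 5.63 to 5.71. Neither settings, genome build nor detection calls are given in these sources, so no coordinates are printed, and the precision is limited by the number of arrays.

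Names came from GEO's platform annotation, with 1 symbol for 13157 probe sets and several for 523. Through Entrez numbers 7 symbols were updated, and CYBB was matched through its RefSeq synonym. Where a gene had several probe sets, that of the highest mean level was used. Mandibular minus tibial differences and their SE came from limma 3.58.1 in R 4.3.3 (lmFit, eBayes), unpaired and two-sided, p-values being adjusted over all probe sets by the Benjamini-Hochberg method and called under 0.05. The fit was tested on simulated data. The labels call the samples biological replicates, but cultures of both sites came from the same 3 pigs, which the unpaired fit does not take into account.

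The 9 genes and all lists were chosen with earlier results of these data known. Genes named are the 9, the measured ones of 30 partner genes written down by name (20 were measured), the 10 genes with the nearest centred profile and the 3 nearest to each of the 9. Any others named (TFEC, LCP1, ARHGDIB, TREM1, BLNK, CD86, NT5E, the Toll-like receptor subsets, single marker genes and genome neighbours) were chosen after their values were seen. Motif counts in promoters were planned and not run, since no sequence was used here.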

Additional observations from a re-analysis of the deposited data

How the results depend on the processing

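Each of the 9 genes kept its direction in every single omission, without mandibular 2 and tibial 3, with median centring and with array weights. Leaving out mandibular 2, tibial 3 or both could only widen the differences, so it was no check of direction. The replicate block and the choice of probe set leave their differences as they are by construction. The median difference of the 9 ranged from -3.17 (without tibial 3) to -1.44 (without tibial 1) in single omissions and was -3.54 without mandibular 2 and tibial 3, an omission chosen with earlier results of these data known. For the 92 other myeloid genes the median stayed between -0.91 and -0.20, and the medians of 2 lists, colony-stimulating factors and integrins, turned without tibial 1 or with array weights, that of integrins also with the filter on a mean of at least 5 (0.03). Probe sets passing the site test numbered 0 with all arrays and 0 to 2 in single omissions (1 without tibial 1, 2 without tibial 3), and 195 without mandibular 2 and tibial 3. Probe sets without overlap numbered 1907 with all arrays, 3494 to 5969 in single omissions and 10285 without both arrays, where fewer arrays make a lack of overlap more frequent, and 981 among probe sets with a mean of at least 5, where fewer were counted. With the replicate number as a block 0 probe sets were called, while 1511 had an unadjusted p under 0.05 beside 836 without the block, and the median of the 9 was -2.18. Deviations of same-numbered arrays correlated at -0.03, 0.21 and 0.47. Mandibular 1 correlated best with tibial 3 (0.13), mandibular 2 with tibial 1 (0.36) and mandibular 3 with tibial 3 (0.47). With 3 arrays per site these correlations cannot tell whether a shared number marks a shared pig. The arrays were left unpaired because the labels do not tie a number to a pig. By Pearson correlation in place of the profile distance, 4 of the 10 nearest genes (PRDM1, BANK1, TAGAP and ADAM28) were shared. Low levels are limited by the lack of a detection call.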

Other observations

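The genes next to the 9 in the RefSeq order of Sscrofa11.1 were looked up after their values were seen. Of 18 neighbouring places, 12 held a measured gene, and 2 of these spanned 1 log2 unit or more over the arrays. PDGFRB, the stromal growth factor receptor gene beside CSF1R, measured 10.96, 11.12 and 10.84 in mandibular 1, 2 and 3, against 11.15, 10.92 and 10.45 in tibial 1, 2 and 3, a range of 0.70 beside 3.22 for CSF1R. SLC39A13, a zinc transporter gene beside SPI1, had a range of 0.40, and CLEC4G, a lectin gene beside CD209, had 0.40 as well. DTX4, beside MPEG1, measured 4.95, 6.31 and 5.18 in mandibular cultures, against 6.19, 6.003 and 5.49 in tibial cultures, and like MPEG1 was well above the other mandibular arrays on mandibular 2. TMEM236, beside MRC1, went the other way, with 5.06, 4.10 and 5.94 in mandibular cultures against 3.69, 3.45 and 4.06 in tibial cultures.

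NKG7 and CD4, of the T and NK cell list, had their highest levels on tibial 1 and 2. NKG7, a granule membrane protein gene of NK and cytotoxic T cells, measured 5.01, 6.28 and 5.002 in mandibular 1, 2 and 3, against 9.84, 8.40 and 5.69 in tibial 1, 2 and 3. GNLY, the granulysin gene of the same cells, had a range of 0.19. CD4, the co-receptor gene of helper T cells, measured 4.00, 3.96 and 3.66 in mandibular cultures, against 5.27, 4.96 and 3.72 in tibial cultures. KIT, the stem cell factor receptor gene of mast cells and blood progenitors, was arranged otherwise, with 5.03, 5.93 and 5.10 in mandibular cultures, against 7.02, 5.18 and 4.09 in tibial cultures, a difference of -0.08, or -1.04 without mandibular 2 and tibial 3.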
